A study of Mus musculus with 13 samples.

Results

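Naive CD4+ T cells of BDC2.5 mice that had spent 96 hours with macrophages from streptozotocin-exposed islets were compared, gene by gene, with CD4+ T cells alone. The comparison used 9 of the 13 bulk RNA libraries of the series, chosen by their labels: 4 libraries of cells alone and 5 of the co-culture. All T cells came from the spleen of female NOD/ShiLtJ mice of the 1Doi/DoiJ line, which carries the transgenes TcraBDC2.5 and TcrbBDC2.5 and whose rearranged T cell receptor transgenes give most CD4+ cells 1 receptor for a beta-cell granule antigen. The macrophage donors were NOD mice given 1 low dose of streptozotocin (STZ), a beta-cell toxin, at 4 weeks of age, and their islets were taken at 5.5 weeks, 10 days after the injection. Macrophages were enriched on magnetic beads, and the T cells were recovered at the end by a sort for viable cells positive for CD45, Thy1.2 and CD4. This co-culture is called the STZ-macrophage co-culture below. The labels list the cells alone as untreated and do not say whether they were cultured, so the comparison covers culture and macrophages together. The replicates are labelled as biological, and nothing says how many mice gave cells to a library. The 4 remaining libraries, of T cells with islet macrophages of buffer-injected donors (control-macrophage co-culture), were used only where named.

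A naive T cell is a small resting cell that circulates through lymph nodes. It is kept alive by interleukin 7 and kept quiescent by factors such as TCF-1 and KLF2. When a macrophage shows it the peptide its receptor recognises, together with costimulation, the cell switches on the genes of interleukin 2 and its receptor, enlarges, takes up glucose and amino acids, divides, and begins to make effector cytokines. The cytokines it meets on the way decide which helper program it adopts. In NOD mice, T cells of this kind enter the islets and drive autoimmune diabetes, and islet macrophages are the main cells there that present beta-cell granule antigen.

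The cells alone held from 17312119 to 39775134 estimated counts per library, with cells-alone replicate 2 the shallowest, and the STZ-macrophage co-cultures from 33398984 to 58827796. Levels are given in CPM, counts divided by the library total after TMM scaling, and 3 counts in 1 library correspond to 0.0582 to 0.138 CPM. All cells-alone libraries and STZ-macrophage replicates 1 and 5 carry the batch label day 1, and replicates 2, 3 and 4 carry day 2. The first principal component of the 9 libraries held 62.1% of the variance, with the cells alone at -167 to -135 and the co-culture at 110 to 128. Cells-alone replicate 1 stood apart on the third component (11.6% of the variance, -143 against -20 to 68.9 in the other 8). Correlations between libraries were 0.862 to 0.957 among the cells alone and 0.902 to 0.982 among the co-cultures. Mitochondrially encoded genes took 1.45 to 2.49% of counts in the cells alone and 1.15 to 1.73% in the co-culture. The nuclear noncoding RNA Malat1, chosen after its values were seen, was at 3120 to 8100 CPM of the unscaled total in the cells alone and at 315 to 478 in the co-culture. Its part in the results below was not tested.

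Between the cells alone and the STZ-macrophage co-culture, 44.9% of the genes tested differed, in both directions. Of 15209 genes tested, 3310 rose (21.8%) and 3513 fell (23.1%) by the edgeR quasi-likelihood test at a Benjamini-Hochberg adjusted p below 0.05, and 363 of those that rose had no count in any of the cells alone. Genes without a count there passed the filter on low counts only through the co-culture, so they could rise but not fall. Counts of list members below are to be read beside the shares of 21.8% and 23.1%. The median log2 fold change over all genes tested was -0.05, and it was 0.08 under RLE scaling and -0.30 with library totals as the scaling, so a fold change is relative to a centre that moves by that much. Groups that did not overlap were found in 21.8% of all genes tested with the co-culture above the cells alone, and in 18.8% with it below. All cells alone are of day 1, so group and batch are partly confounded, and the fold changes over all co-cultures include any difference between the days. The day 1 libraries, compared within their batch in the same model, had 2702 genes higher (17.8%) and 2383 lower (15.7%). These counts were 1551 and 825 without STZ-macrophage replicate 1, and 1440 and 924 without replicate 5, when 1 library of day 1 was left. Fitted without the day 2 libraries, the counts were 1603 and 1214, and without replicates 2 and 4 they were 2142 and 2086. In bulk RNA, a lower level per library can come from fewer cells of a type or from less RNA per cell, and these cannot be told apart here.

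**Figure D1:**
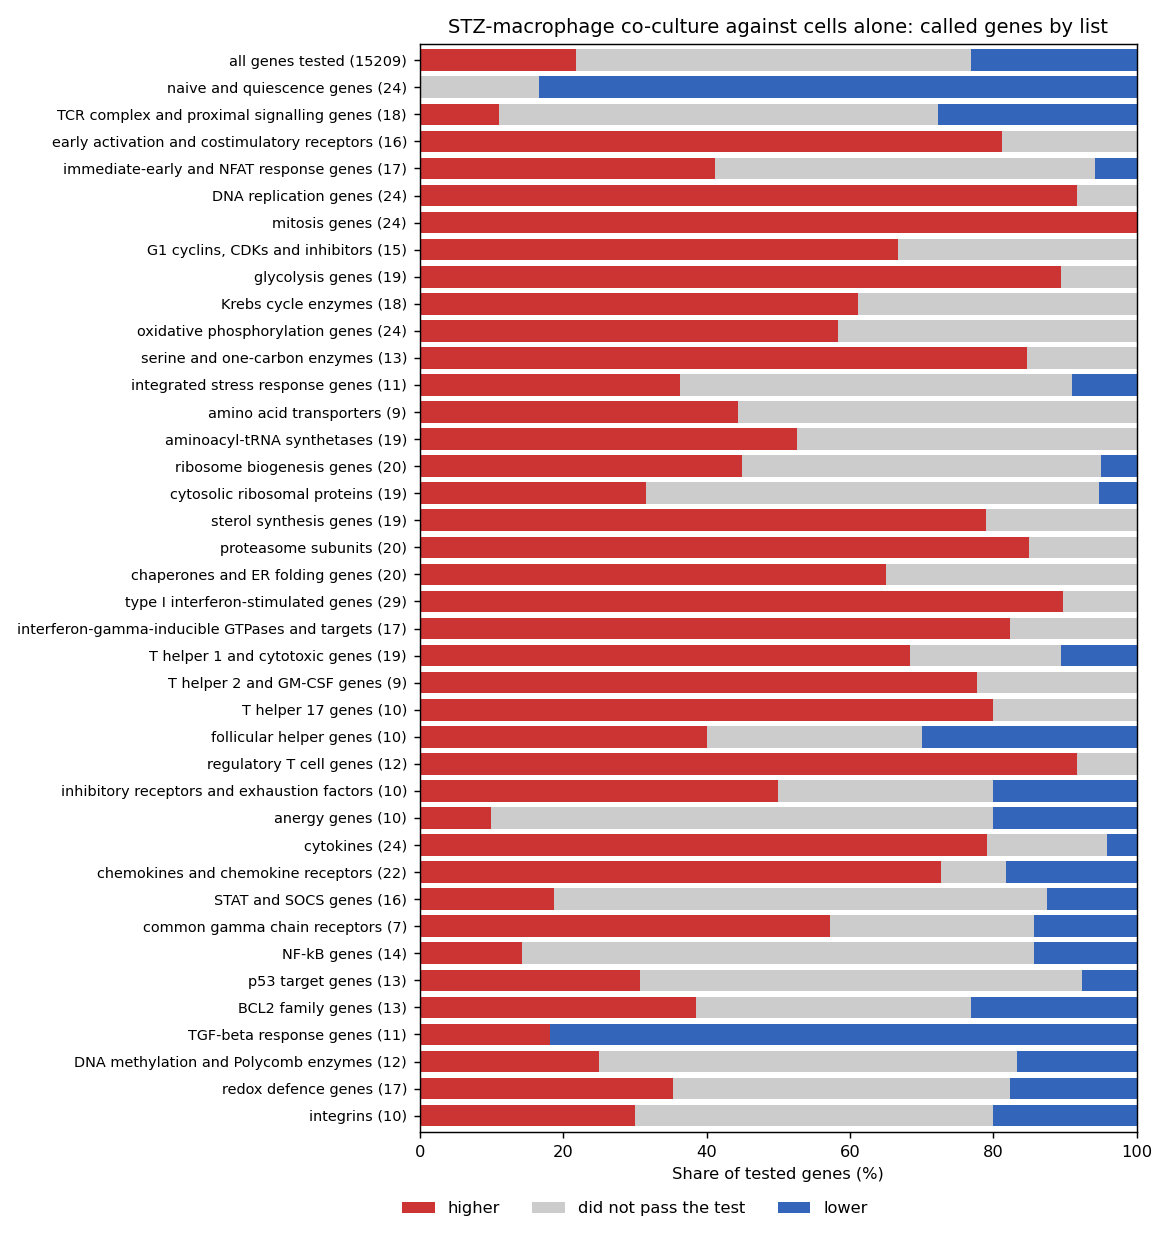
Share of tested members of each gene list that rose (red), fell (blue) or did not pass the test (grey) in the STZ-macrophage co-culture against the cells alone, with all 15209 genes tested in the top bar (21.8% higher, 23.1% lower). The number of tested members stands beside each list. The mitosis bar is red throughout, and most of the type I interferon bar is red (26 of 29) and of the naive and quiescence bar blue (20 of 24).

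Naive and quiescence genes fell as a group. Of 24 tested, 20 fell and 0 rose, and their median log2 fold change was -2.39, against 23.1% of all genes lower and a median of -0.05. Tcf7 encodes TCF-1, the transcription factor of naive and memory T cells. It was at 1410, 933, 1623 and 1478 CPM in cells-alone replicates 1 to 4 and at 109, 68.0, 81.7, 68.2 and 102 CPM in STZ-macrophage replicates 1 to 5 (log2 fold change -3.99 with SE 0.24, edgeR adjusted p = 4.78e-06). Every co-culture library lay far below every library of cells alone. Il7r, the receptor for the survival cytokine interleukin 7, stood at 2892, 1690, 3573 and 4319 CPM in the cells alone. In the co-culture it was at 263, 218, 201, 254 and 261 CPM (log2 fold change -3.70 with SE 0.27, edgeR adjusted p = 1.05e-05), a narrow range in which all 5 libraries were low. S1pr1 lets T cells leave lymphoid tissue, and it went from 1919, 1516, 1487 and 1186 CPM to 147, 84.5, 60.9, 63.3 and 137 CPM (log2 fold change -3.95 with SE 0.33, edgeR adjusted p = 2.04e-05). The groups did not overlap, and the 3 co-cultures of day 2 were below both of day 1. The lymph node homing receptor Ccr7 fell less, from 1524, 865, 1299 and 1102 CPM to 633, 486, 477, 458 and 658 CPM (log2 fold change -1.14 with SE 0.21, edgeR adjusted p = 0.00151). Its groups did not overlap either, but day 1 alone, fitted by itself, did not pass the test for Ccr7. Lef1, a partner of TCF-1, was at 619 to 668 CPM against 1954 to 2751 CPM (-1.85). The 4 members that did not pass were Satb1, Dapl1, Igfbp4 and Nsg2, with negative log2 fold changes between -1.0 and -0.16.

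Other genes with large falls were Tcp11l2, Thada, Rsrp1, Cnga1, Zrsr1, Gprasp1, Arhgef18 and Arl5c, with log2 fold changes from -5.10 to -3.75. Tsc22d3, the glucocorticoid-induced leucine zipper GILZ, was at 530, 283, 548 and 506 CPM in the cells alone and at 55.6, 19.6, 19.6, 16.2 and 54.5 CPM in the co-culture (log2 fold change -3.82 with SE 0.46, edgeR adjusted p = 0.000145). Rsrp1 rested on uneven libraries, with 71.1, 1059, 129.9 and 176 CPM in cells-alone replicates 1 to 4 and 36.9, 9.93, 16.3, 13.2 and 21.7 CPM in the co-culture (log2 fold change -4.20 with SE 0.81, edgeR adjusted p = 0.00213). Replicate 2 of the cells alone stood far above the rest, and without it the log2 fold change of Rsrp1 was -2.68 (edgeR adjusted p = 0.00106). Its call was lost with day 1 fitted by itself, but Rsrp1 passed in the day 1 libraries compared within their batch (edgeR adjusted p = 0.0327).

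**Figure D2:**
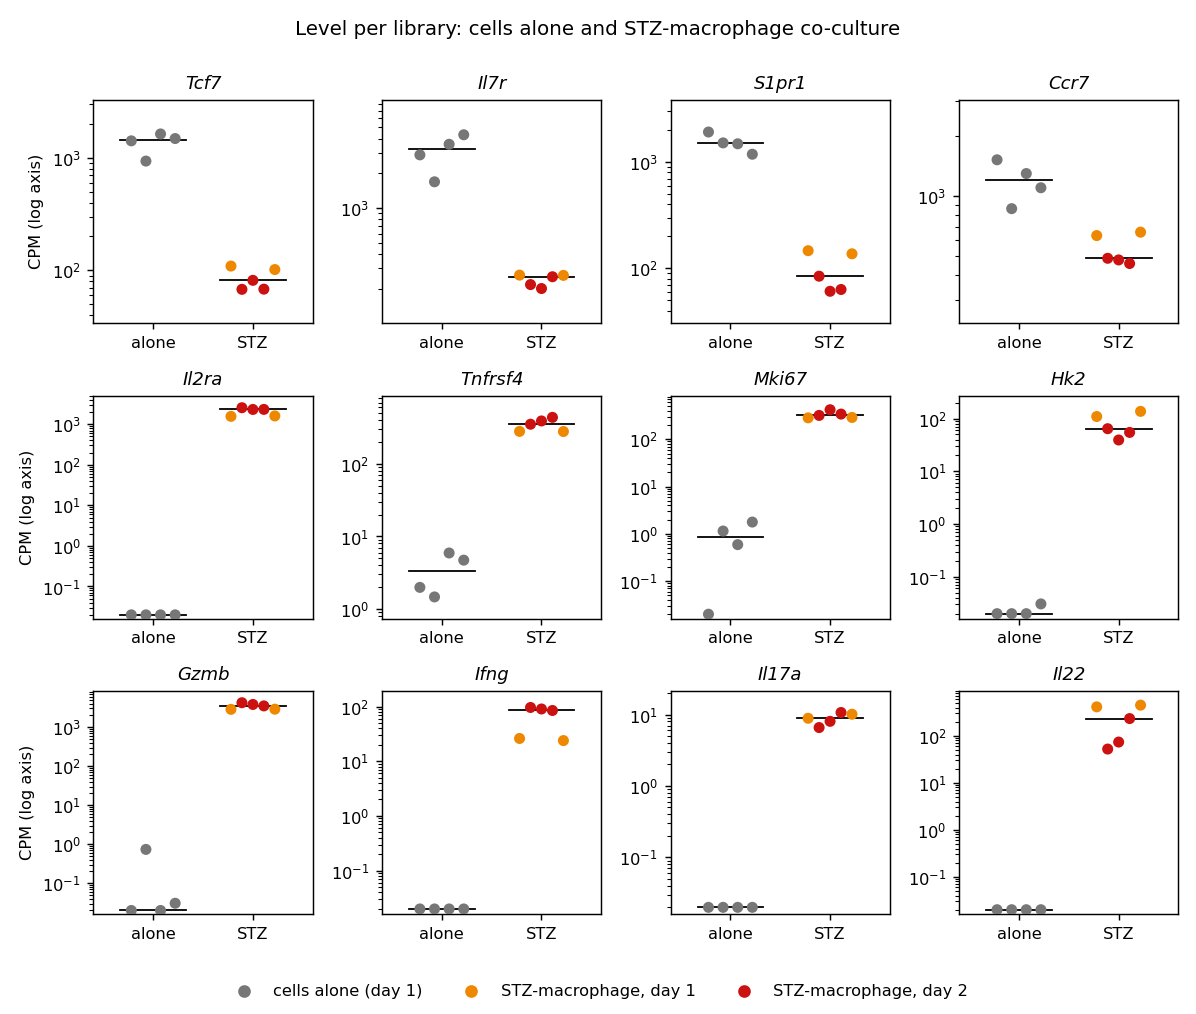
CPM (log axis) of 12 genes in each library, with 4 cells-alone libraries in grey, STZ-macrophage co-cultures labelled day 1 in orange and those labelled day 2 in red. Horizontal bars are group medians, and libraries at 0 are drawn at the lower edge. Naive genes (Tcf7, Il7r, S1pr1, Ccr7) are lower in all 5 co-cultures, and activation and effector genes are higher in all 5, with Il2ra, Ifng, Il17a and Il22 at 0 in all 4 cells-alone libraries.

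The T cell receptor machinery did not move as a group. Of 18 genes of the receptor complex and its proximal signalling, 2 rose, 5 fell and 11 did not pass the test, and the list's median log2 fold change was -0.05 (0.09 under RLE scaling). Over all genes tested, 21.8% rose and 23.1% fell. Cd4 was at 854, 532, 754 and 883 CPM in the cells alone and at 885, 1026, 947, 919 and 883 CPM in the co-culture (log2 fold change 0.30 with SE 0.18, edgeR adjusted p = 0.198), with overlapping ranges. Cd3e, a signalling chain of the receptor, was at 1859, 952, 1644 and 1930 and 1140, 1366, 1290, 1187 and 1245 CPM (log2 fold change -0.36 with SE 0.21, edgeR adjusted p = 0.196). Without cells-alone replicate 2, the lowest of its group, the adjusted p of Cd3e was 0.0246 (edgeR). Cd3e also passed, as lower, with library totals as the scaling. Among the members that moved, Plcg1, the phospholipase downstream of the receptor (log2 fold change -1.68 with SE 0.19, edgeR adjusted p = 0.000102), and the costimulatory receptor Cd28 (log2 fold change -1.41 with SE 0.25, edgeR adjusted p = 0.0014) fell. Themis, a regulator of receptor signalling in developing T cells, rose (log2 fold change 1.28 with SE 0.27, edgeR adjusted p = 0.00314). Cd28 and Themis did not pass with the day 1 libraries fitted by themselves. Both passed in the day 1 libraries compared within their batch in the model of all 9 libraries (edgeR adjusted p = 0.0223 and 0.0159).

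Early activation and costimulatory receptors rose. Of 16 tested, 13 rose, 0 fell and 3 did not pass (Cd40lg, Slc3a2 and Nrp1), with a median log2 fold change of 3.73. Il2ra encodes CD25, the chain that gives the interleukin 2 receptor its high affinity, and lies on chromosome 2 at 11642807 to 11693193 (GRCm38, GENCODE vM21). It had 0 counts in all 4 libraries of cells alone, and it stood at 1568, 2561, 2320, 2328 and 1606 CPM in the co-culture, at least 88700-fold higher against a floor of 3 counts over the group (edgeR adjusted p = 2.52e-06). Replicates 1 and 5, both of day 1, were the lowest of the 5. Tnfrsf4, the costimulatory receptor OX40, was at 1.99, 1.47, 5.92 and 4.72 CPM in the cells alone and 280.1, 352, 390.1, 437 and 279 CPM in the co-culture (log2 fold change 6.61 with SE 0.50, edgeR adjusted p = 1.41e-05). Tnfrsf9, the receptor 4-1BB, followed the same pattern, with 0, 0.735, 0.888 and 0.919 CPM against 420.1, 836, 798, 732 and 433 CPM (log2 fold change 9.97 with SE 0.89, edgeR adjusted p = 3.04e-05). Tnfrsf8, the receptor CD30, had no count in the cells alone and 18.8 to 42.1 CPM in the co-culture, at least 1180-fold higher. The classical activation markers moved by smaller factors. Cd69, an early activation antigen that keeps cells in tissue, went from 52.8, 13.9, 22.9 and 23.2 CPM to 172, 207, 205, 227 and 178 CPM (log2 fold change 2.81 with SE 0.37, edgeR adjusted p = 0.000246). Cd44, the hyaluronan receptor that marks antigen-experienced cells, went from 27.6, 20.6, 33.5 and 29.0 CPM to 119.7, 203, 187, 180.3 and 119 CPM (log2 fold change 2.55 with SE 0.25, edgeR adjusted p = 4.89e-05). In both, every co-culture library was above every library of cells alone. Tnfrsf18 (GITR) rose as well (2.28), though 27.2% of its exonic bases lie under an antisense gene, Gm16008 and the library kit does not keep the strand.

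Receptors and signal transducers of the common gamma chain cytokines did not move as 1 group. Of 7 receptor genes tested, 4 rose (Il2ra, Il2rb, Il15ra and Il2rg), Il7r fell, and Il4ra and Il21r did not pass. Il2rb, shared by the interleukin 2 and 15 receptors, was at 46.5, 19.3, 16.8 and 38.5 CPM in the cells alone and 499, 931, 998, 841 and 522 CPM in the co-culture (log2 fold change 4.64 with SE 0.43, edgeR adjusted p = 3.35e-05). Of 16 STAT, JAK and SOCS genes, 3 rose, 2 fell and 11 did not pass, with a median log2 fold change of 0.33 (-0.51 with day 2 alone). Among all genes tested, 21.8% were higher and 23.1% lower. Cish, a feedback inhibitor that STAT5 turns on, was at 13.4, 6.75, 9.79 and 8.76 CPM and 346, 502, 396, 419.8 and 329.5 CPM (log2 fold change 5.36 with SE 0.28, edgeR adjusted p = 2.52e-06). Socs2, another STAT5 target, rose too (log2 fold change 9.90 with SE 1.48, edgeR adjusted p = 0.00052), with the day 1 co-cultures at 131 and 125.5 CPM and those of day 2 at 17.7 to 25.5 CPM. Jak1, the kinase that signals for these receptors, fell from 924, 1887, 1235 and 1442 CPM to 528, 103, 129, 113 and 220.4 CPM (log2 fold change -2.65 with SE 0.50, edgeR adjusted p = 0.00202).

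Immediate-early genes, which respond to the receptor within hours and then decline, were listed with response genes of the factor NFAT, and this list was mixed at 96 hours. Of 17 tested, 7 rose, 1 fell and 9 did not pass, with a median log2 fold change of 1.57. Irf4, the interferon regulatory factor that scales with receptor signal strength, was at 0, 0.872, 1.55 and 1.38 CPM in the cells alone and 69.4, 112, 96.8, 109 and 74.5 CPM in the co-culture (log2 fold change 6.58 with SE 0.92, edgeR adjusted p = 0.000346). Batf3, an AP-1 factor, had no count in the cells alone and 18.5, 6.05, 2.56, 6.68 and 17.4 CPM in the co-culture, at least 415-fold higher (edgeR adjusted p = 0.000407). Outside this list, Bhlhe40, a transcription factor needed for effector cytokines, went from 5.83, 0.827, 2.98 and 1.47 CPM to 508, 596, 529, 567 and 502 CPM (log2 fold change 7.59 with SE 0.61, edgeR adjusted p = 1.86e-05). Its 5 co-culture libraries lay close together. Myc, the growth regulator, did not pass over all 5 libraries (log2 fold change 1.70 with SE 0.95, edgeR adjusted p = 0.172). It was at 91.3, 92.0, 20.6 and 6.28 CPM in the cells alone and 343, 79.97, 27.3, 55.7 and 349 CPM in the co-culture, where only the day 1 libraries, replicates 1 and 5, lay above all cells alone. Dusp2, a nuclear phosphatase, fell (-1.92).

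The genes of cell division rose by large factors. All 24 mitosis genes rose, with a median log2 fold change of 8.72, and 22 of 24 DNA replication genes rose, with a median of 3.57, beside 21.8% of all genes. Mki67, the proliferation antigen Ki-67, was at 0, 1.15, 0.592 and 1.78 CPM in the cells alone and 284, 319.9, 422, 341 and 289.7 CPM in the co-culture (log2 fold change 8.56 with SE 0.93, edgeR adjusted p = 8.38e-05). The spindle checkpoint kinase Bub1 had no count in the cells alone and 250.6, 373, 311, 297 and 243 CPM in the co-culture, at least 12700-fold higher (edgeR adjusted p = 2.52e-06). Hmmr, a microtubule-binding protein of the spindle, had 3 counts over the 4 libraries of cells alone and stood at 343, 501, 465, 447 and 330.2 CPM in the co-culture. The ratio of its pooled counts was 17800 (exact 95% interval 6090 to 86300). In all of these genes the cells alone were at or near 0. Birc5, the inhibitor of apoptosis survivin that guides chromosome segregation, went from 0.130, 0.551, 0.567 and 0.153 CPM to 576, 662, 668, 648 and 597 CPM (log2 fold change 10.81 with SE 0.54, edgeR adjusted p = 2.52e-06), and Top2a, the topoisomerase that untangles chromosomes, from 0 to 1.75 to 1584 to 2155 CPM (11.38). Kif20a, a motor of cytokinesis, rose (6.96), with 29.3% of its exonic bases covered by Cdc23 on the opposite strand, and Tacc3, a spindle protein, rose as well (5.53).

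The median rise of the replication genes was smaller than that of the mitosis genes. Mcm5, a subunit of the replicative helicase, was at 76.6, 43.2, 70.4 and 63.1 CPM in the cells alone and 734, 1229, 1039, 989.7 and 786 CPM in the co-culture (log2 fold change 3.92 with SE 0.26, edgeR adjusted p = 6.09e-06). Thymidine kinase, Tk1, was at 1.34, 2.25, 2.96 and 3.43 CPM and 169.9, 248, 235, 234 and 184 CPM (log2 fold change 6.42 with SE 0.35, edgeR adjusted p = 3.16e-06). In both genes the day 2 libraries were the highest, and no library of the 2 groups overlapped. The members that did not pass were Mcm6 and Cdt1, with log2 fold changes of 2.49 and 0.91. Of 15 G1 cyclins, CDKs and their inhibitors, 10 rose, 0 fell and 5 did not pass. Ccnd2, the D-type cyclin of lymphocytes (log2 fold change 2.08 with SE 0.19, edgeR adjusted p = 3.09e-05), Cdk2 (2.23) and Cdk6 (4.84) rose. The CDK inhibitor Cdkn1a (p21) rose with them, from 0, 0, 0.641 and 0 CPM to 214, 469, 377, 404 and 219 CPM (log2 fold change 10.81 with SE 1.20, edgeR adjusted p = 9.45e-05). Without cells-alone replicate 3, the only one of its group with a count, the fitted value of Cdkn1a was 16.49, which depends on the prior count.

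Short motifs known for genes of these lists were searched in their promoters, and 4 promoters with a match are shown because their genes were among those at or near 0 in the cells alone or among the larger rises. The cell cycle homology region (CHR) is read by the complexes that time mitotic genes. Its letters, TTTGAA or their complement, were found in the window from 250 bases before to 50 after the start site in 15 of the 20 mitosis genes that RefSeq's GRCm38.p6 table holds (75.0%), against 20.2% of all 27025 genes with a window and 14.8% of those tested. E2F motifs (TTTGGCGC, TTTCCCGC or TTTCGCGC, both strands) were found in 8 of 19 DNA replication genes (42.1%), against 2.12% of all genes and 4.19% of the 9744 tested genes with a window. Capitals mark the motif, and each promoter is written 5′ to 3′ on its gene's strand. Hmmr lies on the minus strand at chr11:40733388-40733687, Ube2c, the ubiquitin-conjugating enzyme of mitotic exit, on the plus strand at chr2:164769679-164769978, Cdc6, which loads the helicase, on the plus strand at chr11:98907901-98908200, and Pola1, the catalytic subunit of the priming polymerase, on the minus strand at chrX:93632106-93632405.
Hmmr: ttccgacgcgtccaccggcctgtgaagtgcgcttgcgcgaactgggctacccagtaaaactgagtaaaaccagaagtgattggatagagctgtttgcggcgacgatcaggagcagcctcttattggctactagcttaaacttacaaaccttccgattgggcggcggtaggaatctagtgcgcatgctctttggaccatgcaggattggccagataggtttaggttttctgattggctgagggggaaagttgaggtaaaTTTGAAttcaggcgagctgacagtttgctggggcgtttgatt
Ube2c: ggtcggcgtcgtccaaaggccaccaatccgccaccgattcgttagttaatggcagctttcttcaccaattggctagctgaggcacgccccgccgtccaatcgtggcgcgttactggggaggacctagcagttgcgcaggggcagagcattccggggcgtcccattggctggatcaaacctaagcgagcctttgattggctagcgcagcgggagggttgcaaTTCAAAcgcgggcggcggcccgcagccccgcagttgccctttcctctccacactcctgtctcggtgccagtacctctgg
Cdc6: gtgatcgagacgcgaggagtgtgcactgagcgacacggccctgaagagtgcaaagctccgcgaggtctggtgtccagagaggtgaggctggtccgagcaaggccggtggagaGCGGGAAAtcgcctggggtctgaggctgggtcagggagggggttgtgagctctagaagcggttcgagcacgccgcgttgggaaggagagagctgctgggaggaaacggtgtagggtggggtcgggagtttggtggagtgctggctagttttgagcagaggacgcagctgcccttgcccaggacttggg
Pola1: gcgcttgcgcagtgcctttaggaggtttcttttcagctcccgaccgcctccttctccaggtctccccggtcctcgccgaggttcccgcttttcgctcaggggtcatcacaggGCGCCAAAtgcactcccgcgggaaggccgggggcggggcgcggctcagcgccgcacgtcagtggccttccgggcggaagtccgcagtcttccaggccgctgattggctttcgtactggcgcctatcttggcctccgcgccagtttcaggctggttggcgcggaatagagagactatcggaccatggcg
Ube2c, Cdc6 and Pola1 lie outside the naming rule and were chosen after their values were seen. Ube2c was at 0 to 0.173 CPM in the cells alone and 143 to 318 CPM in the co-culture (log2 fold change 11.76 with SE 0.76, edgeR adjusted p = 6.04e-06), Cdc6 at 0 to 1.84 and 266 to 491 CPM (8.64), and Pola1 at 8.05 to 20.6 and 167 to 291 CPM (4.07). A motif match describes the letters of the window and was not tested as a site.

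Metabolic genes rose. Of 19 glycolysis genes tested, 17 rose and 0 fell, with a median log2 fold change of 2.44, and the members that did not pass were Pdk1 and Slc16a1. Hk2, the inducible hexokinase that traps glucose in the cell, had 1 count over the cells alone and stood at 109.5, 64.3, 39.3, 54.7 and 137 CPM in the co-culture. The ratio of its pooled counts was 9980 (exact 95% interval 1790 to 394000), and replicates 1 and 5 were the highest. Tpi1, triosephosphate isomerase, was at 40.9, 21.8, 60.0 and 51.8 CPM in the cells alone and 2631, 2457, 2433, 2465 and 2778 CPM in the co-culture (log2 fold change 5.87 with SE 0.33, edgeR adjusted p = 3.60e-06). Gapdh, the next enzyme of the pathway, was at 28.6, 32.8, 40.3 and 32.7 CPM and 378, 372, 437, 422 and 439.5 CPM (log2 fold change 3.61 with SE 0.18, edgeR adjusted p = 2.52e-06). The spread within each group was far below the difference between the groups for both enzymes. Pkm, the pyruvate kinase of the last step, rose (3.08), with 15.3% of its exonic bases shared with Gm49759.

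Transcripts of nuclear genes for mitochondrial enzymes rose in part, by smaller factors. Of 18 Krebs cycle genes, 11 rose and 0 fell, with a median log2 fold change of 0.95, and of 24 nuclear genes of oxidative phosphorylation, 14 rose and 0 fell, with a median of 1.00. Citrate synthase, Cs, which starts the cycle, was at 169.9, 160.4, 201 and 184 CPM and 478, 741, 577, 602 and 487 CPM (log2 fold change 1.69 with SE 0.19, edgeR adjusted p = 8.37e-05). Cytochrome c, Cycs, which carries electrons between complexes, was at 63.9, 45.8, 81.5 and 60.9 CPM and 208, 275, 322, 290.5 and 221 CPM (log2 fold change 2.06 with SE 0.23, edgeR adjusted p = 8.50e-05). Of 13 serine and one-carbon enzymes, which feed nucleotide synthesis, 11 rose and 0 fell, with a median of 2.04. Psat1, the transaminase of serine synthesis, went from 7.63, 7.39, 25.5 and 14.4 CPM to 281, 504, 465, 450.5 and 294 CPM (log2 fold change 4.86 with SE 0.46, edgeR adjusted p = 4.17e-05), and Shmt1, which passes the carbon on to folate, from 2.20 to 9.94 to 98.7 to 228 CPM (4.80). Of 19 sterol synthesis genes, 15 rose and 0 fell, with a median of 1.26. Cyp51, which removes a methyl group from lanosterol, was at 34.0, 31.6, 20.1 and 10.3 CPM and 307, 237, 177, 215 and 320.5 CPM (log2 fold change 3.39 with SE 0.38, edgeR adjusted p = 0.000103). Scd2, a fatty acid desaturase, was among the 12 largest rises in genes with a mean log2 CPM of at least 5 over the 9 libraries. It stood at 2.90, 3.77, 6.09 and 10.1 CPM in the cells alone and 1059, 528, 431, 482 and 1025 CPM in the co-culture (log2 fold change 6.94 with SE 0.56, edgeR adjusted p = 1.86e-05).

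**Figure D3:**
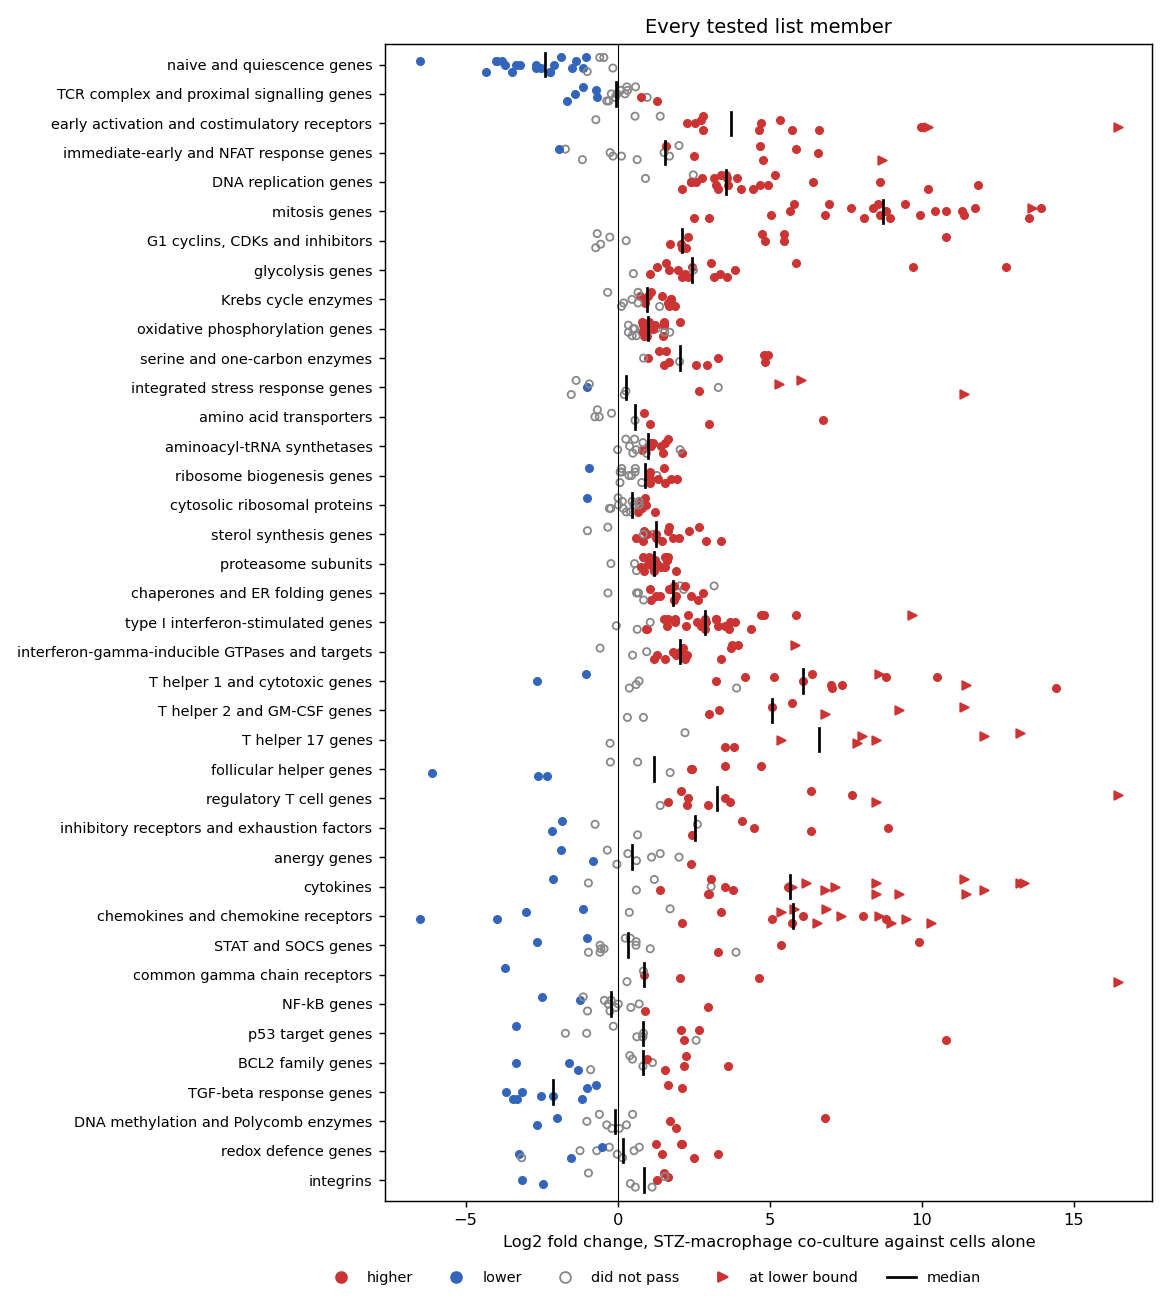
Log2 fold change (STZ-macrophage co-culture against the cells alone) of every tested member of each gene list, 1 point a gene, filled where the adjusted p is below 0.05. Triangles are genes without a count in the cells alone, drawn at the lower bound of their fold, and vertical bars are list medians with these genes at the bound. The mitosis list has the highest of these medians (8.72), and the naive and quiescence list lies to the left of 0.

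Genes of protein synthesis, folding and turnover differed among themselves. Of 20 chaperones and folding enzymes of the endoplasmic reticulum and cytosol, 13 rose and 0 fell, with a median log2 fold change of 1.81. Calr, the chaperone calreticulin, was at 268, 236, 216 and 161 CPM in the cells alone and 1186, 1908, 1522, 1798 and 1222 CPM in the co-culture (log2 fold change 2.79 with SE 0.24, edgeR adjusted p = 2.15e-05). Of 20 proteasome subunits, 17 rose and 0 fell, with a median of 1.21, Psma5 being an example (1.66). Of 19 aminoacyl-tRNA synthetases, 10 rose and 0 fell, with a median of 1.00. In the day 1 libraries compared within their batch, 11 proteasome subunits and 7 synthetases were higher and 0 lower (edgeR). Ribosome biogenesis was less even, with 9 of 20 genes higher and 1 lower, and 3 higher and 1 lower in the day 1 libraries compared within their batch (edgeR). Npm1, a nucleolar chaperone, was at 139, 95.5, 187 and 179 CPM in the cells alone and at 331, 698, 772, 736 and 364 CPM in the co-culture (log2 fold change 1.95 with SE 0.34, edgeR adjusted p = 0.00114), the day 2 libraries being well above those of day 1. Of 19 ribosomal protein genes, 6 rose and 1 fell, and in the day 1 libraries compared within their batch 0 rose and 1 fell (edgeR). Beside the lists of this paragraph, 21.8% of all genes rose and 23.1% fell, and within day 1 17.8% and 15.7%. In the integrated stress response list, 4 of 11 rose and 1 fell, with a median of 0.27. Of the 11, 3 had no count in the cells alone, passed the filter on low counts only through the co-culture and could not fall. Asns, asparagine synthetase, had no count in the cells alone and 55.5, 71.9, 59.8, 69.5 and 57.0 CPM in the co-culture, at least 2660-fold higher (edgeR adjusted p = 4.48e-06). Nupr1 and Chac1, targets of the same response, also had no count in the cells alone and were at 1.20 to 2.36 and 0.228 to 2.37 CPM. Ddit3, the stress factor CHOP, fell (-0.996), a call that was lost with day 1 alone and without STZ-macrophage replicates 2 and 4 or cells-alone replicates 3 and 4. Of 9 amino acid transporters, 4 rose and 0 fell, with a median of 0.57 (-0.57 with day 2 alone), including Slc7a1, the arginine transporter (1.06), whose call was lost with day 1 alone and in the authors' adjusted table. Slc7a1 passed in the day 1 libraries compared within their batch (edgeR adjusted p = 0.0165).

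Interferon-stimulated genes rose. Of 29 type I interferon-stimulated genes tested, 26 rose and 0 fell, with a median log2 fold change of 2.87, and Ifit2, Stat2 and Ddx58 did not pass. Isg15, a ubiquitin-like modifier, was at 10.98, 3.31, 8.34 and 7.35 CPM in the cells alone and 242, 188, 196, 168 and 258 CPM in the co-culture (log2 fold change 4.81 with SE 0.37, edgeR adjusted p = 1.45e-05). Ifi27l2a was at 71.7, 46.6, 79.3 and 71.2 CPM and 1682, 948, 1318, 1147 and 1915 CPM (log2 fold change 4.38 with SE 0.29, edgeR adjusted p = 6.22e-06). For both genes the groups lay far apart, and replicates 1 and 5 were the highest of the co-culture. Ifi44 had no count in the cells alone and 17.3, 19.4, 24.7, 20.3 and 16 CPM in the co-culture, at least 819-fold higher (edgeR adjusted p = 1.41e-05). Of 17 genes induced by interferon gamma, 14 rose and 0 fell, with a median of 2.05, and Irf1, Socs1 and Ciita did not pass. Gbp6, a guanylate-binding GTPase, was at 75.4, 34.1, 57.5 and 82.5 CPM and 905, 906, 756, 759.8 and 898 CPM (log2 fold change 3.76 with SE 0.28, edgeR adjusted p = 1.26e-05), with 29.0% of its exonic bases shared with the same-strand gene model Gm43302. Igtp, an immunity-related GTPase, rose as well (2.14).

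The interferon-stimulated response element (ISRE), here the letters TTTC, any 2 bases and TTTC again on either strand, was found in the promoter window of 14 of the 22 type I interferon-stimulated genes that the RefSeq table holds (63.6%), against 3.99% of all genes and 3.98% of those tested. The windows of Oas3, which makes the second messenger of RNase L, and of Isg15 are shown, with the motif in capitals. Oas3 lies on the minus strand at chr5:120777610-120777909, and Isg15 on the minus strand at chr4:156200769-156201068. In Isg15, 3 overlapping matches begin at positions -78, -72 and -66 relative to the start site.
Oas3: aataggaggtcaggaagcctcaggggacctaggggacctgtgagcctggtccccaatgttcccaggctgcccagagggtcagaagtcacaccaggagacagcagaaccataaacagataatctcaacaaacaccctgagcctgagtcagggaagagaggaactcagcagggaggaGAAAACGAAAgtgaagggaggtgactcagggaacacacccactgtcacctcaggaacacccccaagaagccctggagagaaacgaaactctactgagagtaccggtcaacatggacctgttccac
Isg15: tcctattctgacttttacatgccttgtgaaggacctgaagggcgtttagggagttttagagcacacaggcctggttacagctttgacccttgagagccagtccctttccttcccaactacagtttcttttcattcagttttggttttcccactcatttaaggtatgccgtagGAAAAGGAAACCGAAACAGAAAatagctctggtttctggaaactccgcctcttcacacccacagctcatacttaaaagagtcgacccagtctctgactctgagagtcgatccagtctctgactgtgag
Oas3, chosen after its values were seen, was at 9.29, 2.02, 1.78 and 1.23 CPM in the cells alone and 331, 184, 76.3, 122 and 339.9 CPM in the co-culture (log2 fold change 5.88 with SE 0.83, edgeR adjusted p = 0.000365), the day 1 libraries being the highest.

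Effector cytokines were among the genes without a count in the cells alone. Of 24 cytokine genes tested, 19 rose, Il16 fell and 4 did not pass, with a median log2 fold change of 7.01 (5.67 with the 12 genes without a count in the cells alone set at their lower bounds). Those 12 passed the filter on low counts only through the co-culture, so they could rise but not fall. Ifng, interferon gamma, had 0 counts in all 4 libraries of cells alone, and 25.9% of its exonic bases are shared with the same-strand gene model Gm49751. It stood at 26.1, 96.0, 90.1, 84.6 and 23.9 CPM in the co-culture, at least 2800-fold higher (edgeR adjusted p = 9.86e-05), with the 3 libraries of day 2 above both of day 1. Lif, leukemia inhibitory factor, also had no count in the cells alone and stood at 209, 292, 255, 256 and 214 CPM, at least 10400-fold higher (edgeR adjusted p = 2.52e-06). Lta, lymphotoxin alpha, was present at 22.4, 12.3, 13.2 and 15.3 CPM in the cells alone and rose to 396, 1031, 1006, 980.1 and 421 CPM (log2 fold change 5.60 with SE 0.44, edgeR adjusted p = 1.67e-05). Il2, the T cell growth factor, was low in both groups, at 0.456, 0.872, 0.469 and 0.245 CPM and 2.46, 7.97, 4.30, 3.78 and 1.86 CPM (log2 fold change 3.00 with SE 0.60, edgeR adjusted p = 0.00259), and its groups did not overlap. Its call was lost with the day 1 libraries fitted by themselves.

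Markers of more than 1 helper lineage rose together. Of 19 T helper 1 and cytotoxic genes, 13 rose, Prf1 and Il18r1 fell and 4 did not pass, with a median log2 fold change of 6.10. Gzmb, the killing protease granzyme B, is on chromosome 14 at 56258838 to 56262260. It was at 0, 0.735, 0 and 0.0306 CPM in the cells alone and 2851, 4209, 3802, 3492 and 2879 CPM in the co-culture (log2 fold change 14.42 with SE 1.22, edgeR adjusted p = 2.33e-05). Il12rb2, the interleukin 12 receptor chain of T helper 1 cells, went from 0, 0, 0.123 and 0.796 CPM to 376, 373, 300.2, 358 and 347 CPM (log2 fold change 10.49 with SE 1.04, edgeR adjusted p = 5.32e-05), with 40.0% of its exonic bases covered by Serbp1 on the opposite strand. The granule protein gene Nkg7 went from 0.459 to 3.11 to 183 to 397 CPM (7.37), and Fasl, the Fas ligand, from 9.19 to 16.6 to 87.5 to 158 CPM (3.25). Tbx21, the defining factor T-bet, did not pass (log2 fold change 3.91 with SE 1.49, edgeR adjusted p = 0.0556). It was at 0, 0.689, 0 and 0 CPM in the cells alone and 6.82, 1.40, 1.20, 1.13 and 1.52 CPM in the co-culture. Without cells-alone replicate 2, the only one of its group with a count, Tbx21 passed (log2 fold change 9.42, edgeR adjusted p = 0.00197), with a fitted value that depends on the prior count. It also passed under RLE scaling, by DESeq2, with a correction for GC content, with all 13 libraries and day, and in the authors' adjusted table. It did not pass with library totals as the scaling, without a filter, with day 1 alone or with the replicate number as a block.

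T helper 17 genes rose too. Of 10 tested, 8 rose and 0 fell, and 6 of them had no count in the cells alone, so the median log2 fold change of 9.41 was 6.61 with these at their bounds. Those 6 passed the filter on low counts only through the co-culture and could not fall. Il17a, the defining cytokine, had 0 counts in the cells alone and 8.86, 6.58, 8.03, 10.7 and 10.1 CPM in the co-culture, at least 360-fold higher (edgeR adjusted p = 3.09e-05). Il17f stood at 131, 46.3, 78.2, 145 and 131 CPM and was at least 4190-fold higher (edgeR adjusted p = 2.43e-05). Il22, which encodes a cytokine for epithelial cells, stood at 414, 52.4, 73.8, 233 and 450 CPM and was at least 9490-fold higher (edgeR adjusted p = 0.00023). Of these cytokines Il17a varied least over the 5 libraries, and Il22 was several-fold higher in replicates 1, 4 and 5 than in 2 and 3. Il22 has a near-identical copy, Iltifb, so the split of reads between them is uncertain. The receptors Il23r and Il1r1, through which interleukins 23 and 1 sustain these cells, had no count in the cells alone and stood at 2.73 to 8.03 and 2.42 to 11.1 CPM. Rora and Ahr did not pass.

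Of 9 T helper 2 and GM-CSF genes tested, 7 rose and 0 fell, with a median log2 fold change of 5.06, beside 21.8% of all genes higher and 23.1% lower. Of the 9, 3 had no count in the cells alone, passed the filter on low counts only through the co-culture and could not fall. Csf2, the growth factor GM-CSF that activates macrophages, had no count in the cells alone and stood at 4.03, 18.7, 27.3, 16.5 and 3.62 CPM in the co-culture, at least 606-fold higher (edgeR adjusted p = 0.0005). Il24 stood at 32.5, 69.2, 91.0, 84.0 and 38.2 CPM, at least 2650-fold higher, and the chemokine receptor Ccr8 rose from 0 to 1.24 to 15.3 to 45.1 CPM (5.73). The day 2 libraries were the highest in all of these. Il4, the defining T helper 2 cytokine, did not pass the filter on low counts and was not tested, with 1, 0, 25 and 5 counts in the cells alone and 13, 5, 1, 0 and 6 counts in the co-culture. Gata3 and Il4ra did not pass.

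Most chemokines and chemokine receptors rose. Of 22 chemokines and receptors tested, 16 rose, 4 fell and 2 did not pass, with a median log2 fold change of 7.07 (5.76 with the 9 genes without a count in the cells alone at their bounds). Those 9 passed the filter on low counts only through the co-culture and could not fall. The 4 that fell were Ccr7, Ccr9, Cxcr4 and S1pr1, the last a lipid receptor kept in this list for its role in exit. Cxcr4 went from 98.1, 53.6, 159.7 and 152 CPM to 15.2, 12.3, 15.2, 10.7 and 18.6 CPM (log2 fold change -3.01 with SE 0.34, edgeR adjusted p = 9.52e-05). Ccr2, a receptor for monocyte chemoattractants, had no count in the cells alone and 40.4, 27.1, 29.4, 18.1 and 35.0 CPM in the co-culture, at least 1260-fold higher (edgeR adjusted p = 1.78e-05). Of 10 integrins, 3 rose and 2 fell, against 21.8% of all genes higher and 23.1% lower. Itgal and Itgb2, which together form LFA-1, rose (1.54 and 1.29), and Itga6 and Itga4 fell (-3.16 and -2.45). Lgals1, the galactose-binding lectin galectin 1, rose from 13.04, 16.9, 34.3 and 28.6 CPM to 1327, 1339, 1567, 1585 and 1573 CPM (log2 fold change 5.99 with SE 0.35, edgeR adjusted p = 4.11e-06), and the actin-capping gene Capg from 2.43 to 6.19 to 209.6 to 240.3 CPM (5.74).

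Regulatory genes rose beside the effector genes. Of 12 regulatory T cell genes tested, 11 rose and 0 fell, with a median log2 fold change of 3.26, and many of these, Il2ra and Tnfrsf18 among them, are also activation genes. Foxp3, the defining factor of regulatory T cells, was low in both groups, at 1.86, 2.07, 2.02 and 0.521 CPM in the cells alone and 5.96, 11.8, 18.1, 20.6 and 7.51 CPM in the co-culture (log2 fold change 2.98 with SE 0.57, edgeR adjusted p = 0.00192). The groups did not overlap and day 2 was above day 1. Its call was lost with the day 1 libraries fitted by themselves, and 18.6% of its exonic bases are shared with Flicr. Il10, an inhibitory cytokine, had no count in the cells alone and stood at 2.90, 12.5, 14.2, 9.20 and 2.01 CPM, at least 359-fold higher (edgeR adjusted p = 0.000537). Ctla4, which takes CD28 ligands off presenting cells, went from 0, 1.29, 1.38 and 2.39 CPM to 137, 72.4, 81.3, 92.3 and 143 CPM (log2 fold change 6.37 with SE 0.96, edgeR adjusted p = 0.000549). Of 10 inhibitory receptors and exhaustion factors tested, 5 rose, 2 fell and 3 did not pass, with a median of 2.53, against 21.8% of all genes higher and 23.1% lower. Pdcd1, the receptor PD-1, went from 3.78, 1.84, 10.2 and 4.17 CPM to 17.9, 35.3, 36.9, 30.0 and 15.4 CPM (log2 fold change 2.43 with SE 0.53, edgeR adjusted p = 0.00407), and it did not pass with the day 1 libraries fitted by themselves. Havcr2, the receptor TIM-3, went from 0, 0, 0 and 0.184 CPM to 12.8, 31.1, 31.6, 32.4 and 12.6 CPM (log2 fold change 8.88 with SE 1.11, edgeR adjusted p = 0.000187), with day 2 above day 1. Entpd1, the ectonucleotidase CD39, went from 1.597 to 2.66 to 42.0 to 48.8 CPM (4.49). Tox, the factor of exhausted T cells, fell (log2 fold change -2.16 with SE 0.26, edgeR adjusted p = 0.000135). Lag3 did not pass the filter on low counts, with 0 counts in the cells alone and 24, 1, 0, 0 and 9 counts in the co-culture.

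Anergy genes, named for T cells that fail to respond to antigen, did not move as a group. Of 10 tested, 1 rose, 2 fell and 7 did not pass, with a median log2 fold change of 0.48. Beside this list and the follicular helper list below, 21.8% of all genes rose and 23.1% fell. Izumo1r, the folate receptor FR4, rose from 37.8, 6.75, 10.9 and 8.57 CPM to 54.9, 101, 109.7, 95.9 and 62.9 CPM (log2 fold change 2.41 with SE 0.54, edgeR adjusted p = 0.00492), though not with the day 1 libraries fitted by themselves or without cells-alone replicates 3 and 4. Nt5e, the ectonucleotidase CD73 that is read with it as an anergy marker, was at 47.4, 21.2, 9.18 and 5.39 CPM and 39.8, 34.4, 15.2, 30.4 and 39.7 CPM (log2 fold change 0.62 with SE 0.58, edgeR adjusted p = 0.42), with overlapping groups. Without cells-alone replicate 1, the highest of its group, Nt5e passed (log2 fold change 1.43, edgeR adjusted p = 0.0380). Dgka, the kinase that ends diacylglycerol signals, fell (log2 fold change -1.85 with SE 0.53, edgeR adjusted p = 0.0177), and in day 1 it was at 609 and 583 CPM, close to the lowest libraries of cells alone at 845 and 665 CPM. Its call was lost with day 1 alone, without STZ-macrophage replicates 2 and 4, and without cells-alone replicates 1 and 2. Of 10 follicular helper genes, 4 rose and 3 fell. Bcl6, their defining factor, fell from 33.5, 28.9, 10.9 and 15.96 CPM to 4.94, 4.03, 2.93, 3.02 and 7.55 CPM (log2 fold change -2.31 with SE 0.44, edgeR adjusted p = 0.00185), a call that was lost with day 1 alone. Il6ra, the interleukin 6 receptor, fell from 59.2, 137, 68.6 and 75.7 CPM to 1.68, 0.795, 0.797, 1.35 and 1.58 CPM (log2 fold change -6.10 with SE 0.41, edgeR adjusted p = 6.18e-06), and the adhesion receptor Slamf6 from 215 to 559.8 to 64.0 to 82.1 CPM (-2.62).

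Genes of TGF-beta signalling fell. Of 11 tested, 9 fell, and Itgae and Pmepa1 rose, with a median log2 fold change of -2.14. The members that fell include both receptor chains and Smad2 and Smad3, and also inhibitors of the pathway (Smad7, Ski, Skil, Tgif1 and Ldlrad4). Tgif1, a repressor of Smad targets, was at 157, 97.7, 229 and 219.5 CPM in the cells alone and 12.4, 13.5, 16.3, 14.8 and 11.99 CPM in the co-culture (log2 fold change -3.67 with SE 0.28, edgeR adjusted p = 1.26e-05). Skil, another repressor, was at 188 to 280.1 and 44.7 to 67.7 CPM (-2.14), and Ldlrad4 fell (-3.31) with 52.1% of its exonic bases covered by Fam210a on the opposite strand. Of 14 NF-kB genes, 2 rose, 2 fell and 10 did not pass, with a median of -0.23 (0.19 with day 1 alone). Beside this list and the BCL2 family and p53 lists below, 21.8% of all genes rose and 23.1% fell. Rela, the main activating subunit, fell from 325, 208, 225 and 173 CPM to 97.8, 113, 93.4, 82.8 and 104 CPM (log2 fold change -1.24 with SE 0.21, edgeR adjusted p = 0.000942), though not with day 1 alone, and Bcl3 rose (2.98). Of 13 BCL2 family genes, 5 rose and 3 fell. Bcl2l1, which encodes the survival protein BCL-XL, rose from 9.97, 12.3, 16.1 and 21.3 CPM to 124, 255, 207, 205 and 126.3 CPM (log2 fold change 3.62 with SE 0.34, edgeR adjusted p = 3.49e-05), and Mcl1 fell (log2 fold change -1.59 with SE 0.24, edgeR adjusted p = 0.000475). Of 13 p53 targets, 4 rose (Cdkn1a, Pmaip1, Ccng1 and Sesn2) and Bbc3 fell. Pmaip1 and Bbc3 lost their calls with day 1 alone, Bbc3 also without STZ-macrophage replicates 2 and 4 or cells-alone replicates 1 and 2, and Ccng1 in the authors' adjusted table.

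Among 12 DNA methylation and Polycomb enzymes, 3 rose, 2 fell and 7 did not pass, with a median log2 fold change of -0.07 (0.06 under RLE scaling and 0.07 with day 2 alone). For this list and the redox list below, the shares over all genes tested were 21.8% higher and 23.1% lower. Uhrf1, which brings the maintenance methylase to replicated DNA, was at 5.74, 5.92, 5.60 and 5.30 CPM in the cells alone and 609, 795, 564, 591 and 627 CPM in the co-culture (log2 fold change 6.82 with SE 0.21, edgeR adjusted p = 2.26e-07), a difference far above the spread in either group. The maintenance methylase Dnmt1 rose (1.91, a call lost in the authors' adjusted table), while Tet3, which oxidises methylcytosine, and Ezh1, the Polycomb methyltransferase of resting cells, fell (-2.65 and -1.98). Of 17 redox defence genes, 6 rose, 3 fell and 8 did not pass, with a median of 0.16 (-0.09 with library totals as the scaling). Prdx2, a peroxidase, rose (2.11), and Gclc, the first enzyme of glutathione synthesis, fell from 11.7, 29.5, 57.6 and 41.3 CPM to 2.71, 3.04, 6.32, 3.56 and 2.98 CPM (log2 fold change -3.23 with SE 0.47, edgeR adjusted p = 0.000449).

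The 5 co-cultures did not behave alike in every gene. Between the libraries labelled day 2 and day 1, 2 genes were higher (0.0132%) and 16 lower (0.105%) by the edgeR test, and 2469 had an unadjusted p below 0.05. Stk38, a growth-restraining kinase, stood at 453, 903, 332 and 309 CPM in the cells alone and 167, 15.3, 17, 19.6 and 139.8 CPM in STZ-macrophage replicates 1 to 5 (log2 difference -3.15 with SE 0.44, edgeR adjusted p = 0.0481 for day 2 against day 1). H2-K1, a class I presentation molecule, stood at 294, 378, 121 and 108 and 1059, 86.6, 88.0, 85.1 and 964 CPM (log2 difference -3.55 with SE 0.51, edgeR adjusted p = 0.0481). It was above the cells alone in day 1 (log2 fold change 2.17) and below them in day 2 (-1.38), and it belongs to a family of similar genes among which reads can be split. The deubiquitinase Usp28 was low in all 5, at 387, 272, 219.5 and 213 CPM in the cells alone and 20.2, 5.12, 5.41, 4.69 and 21.1 CPM in the co-culture, and lowest in day 2 (log2 difference -2.02 with SE 0.29, edgeR adjusted p = 0.0481). Rinl and the splicing factor Rbm39 were lower in day 2 as well (-2.14 and -2.07). With any 1 co-culture library left out, 0 genes were called between the days by edgeR, with 1104 to 1801 at an unadjusted p below 0.05. The relation of a gene's level to its GC content moved with the same split. Spearman's rho across 14862 genes, which are not independent, was 0.175 and 0.172 in the day 1 co-cultures and -0.131 to -0.0387 in those of day 2. It also divided the cells alone, at 0.110 and 0.153 in replicates 1 and 2 and at -0.159 and -0.238 in replicates 3 and 4, and its part in the difference between the days was not tested. Called genes had a median GC content of 49.0% (higher) and 48.0% (lower), against 49.1% in genes not called, and with a GC correction 3305 genes were higher and 3507 lower than in the cells alone, 3067 and 3343 of them also called without it.

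**Figure D4:**
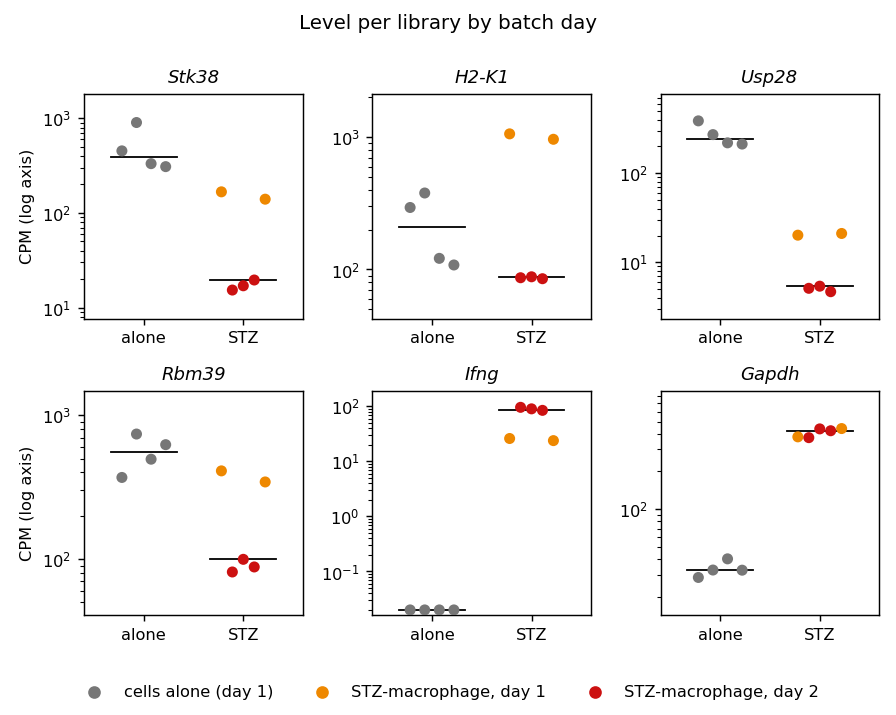
CPM (log axis) of 6 genes in the cells alone (grey, batch day 1) and in the STZ-macrophage co-cultures of day 1 (orange, replicates 1 and 5) and day 2 (red, replicates 2, 3 and 4), 1 point a library. Stk38, H2-K1, Usp28 and Rbm39 are lower in all 3 day 2 co-cultures than in both of day 1, Ifng is higher in day 2, and Gapdh is level.

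Few genes passed a test against macrophages of buffer-injected donors. In the fit of all 13 libraries with the batch day as a term, 24 of 15781 genes were higher with STZ macrophages (0.152%) and 27 lower (0.171%) by edgeR, with 3604 at an unadjusted p below 0.05. These counts moved with the libraries in the fit. With the 9 co-cultures only they were 1498 and 1200, with any 1 of those 9 left out of the fit of all libraries they ranged from 0 to 78 and from 0 to 12, and without control-macrophage replicate 4, or STZ-macrophage replicate 1 or 5, both were 0 (edgeR), with 1555 to 2522 genes at an unadjusted p below 0.05. Il22, without a count in the cells alone, averaged 15.0 ± 6.92 CPM (SD, n = 4) with control macrophages and was higher with STZ macrophages (log2 fold change 4.07 with SE 0.57, edgeR adjusted p = 0.0312). Il17a averaged 0.548 ± 0.419 CPM with control macrophages (log2 fold change 3.89 with SE 0.55, edgeR adjusted p = 0.0312). Ier3, an immediate-early gene, was at 3.03 to 5.38 CPM in the cells alone, 16.8 to 28.2 CPM with STZ macrophages and 4.74 ± 0.480 CPM with control macrophages (log2 fold change 2.296 with SE 0.27, edgeR adjusted p = 0.0087). Tcf7 averaged 231 ± 66.2 CPM with control macrophages, between the cells alone and the STZ-macrophage co-culture (log2 fold change -1.32 with SE 0.20, edgeR adjusted p = 0.0199), as did Slamf6, at 209.5 ± 33.3 CPM (log2 fold change -1.65 with SE 0.25, edgeR adjusted p = 0.0199). For Ifng, Gzmb and Il2ra the difference between the macrophages had an adjusted p of 0.23, 0.608 and 0.328, with log2 fold changes of 1.15 (SE 0.53), 0.48 (SE 0.58) and -0.30 (SE 0.18).

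Markers of other cells were measured beside these results. The summed level of 20 macrophage markers was 201 to 394 CPM in the cells alone and 324 to 447 CPM in the co-culture (log2 difference 0.35, two-sided exact permutation test, p = 0.119). Of 16 tested, 11 rose and 0 fell. Most of the sum came from Ctss and Cst3, which other leukocytes express too, and without them, Apoe and Tyrobp it was 3.13 to 14.5 CPM in the cells alone and 25.5 to 117 CPM in the co-culture (log2 difference 2.80, p = 0.00794 by the same exact test, the smallest it allows). Lyz2, the lysozyme of macrophages and neutrophils, was at 0, 0, 0 and 0.153 CPM in the cells alone and 8.17, 11.3, 44.1, 45.5 and 8.19 CPM in the co-culture (log2 fold change 9.08 with SE 1.30, edgeR adjusted p = 0.000396), highest in replicates 3 and 4. No defining macrophage marker was at 0 in the co-culture, and 4 of the 20 were under 1 CPM in every co-culture library. The part of these transcripts in Ccl22, Cd86, Cxcl9, Il6 and other genes that macrophages also express was not tested. Ccl22, a chemokine that dendritic cells, macrophages and T cells can all make, had no count in the cells alone and stood at 5.60, 21.7, 20.6, 31.3 and 4.20 CPM in the co-culture, at least 710-fold higher (edgeR adjusted p = 0.000397).

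Islet endocrine transcripts were found in single co-cultures. The summed level of 10 endocrine markers was 0 to 0.827 CPM in the cells alone, 164 and 144 CPM in STZ-macrophage replicates 2 and 4, and 0.761 to 3.13 CPM in the other 3. Only 2 of the 10, Ins2 and Chga, passed the filter on low counts and were tested. Most of the sums in replicates 2 and 4 came from the members that were not tested. Ins2, insulin, was at 0.619, 0, 0.148 and 0.367 CPM in the cells alone and 0.304, 35.8, 1.74, 6.61 and 0.274 CPM in the co-culture (log2 fold change 4.94 with SE 1.67, edgeR adjusted p = 0.035), a call that was lost without cells-alone replicate 2, 3 or 4 and without STZ-macrophage replicate 2 or 4. Without STZ-macrophage replicate 2 its log2 fold change was 2.94 (edgeR adjusted p = 0.108). Chga, which encodes the granule protein that holds the BDC2.5 antigen, had no count in the cells alone and 0.331, 3.61, 0.142, 3.62 and 0.456 CPM in the co-culture. Exocrine pancreas markers stayed at or below 1.92 CPM in sum, with 7 of 10 at 0 in every co-culture. The B cell markers fell in sum from 747 to 1850 CPM to 153 to 192 CPM, and nearly all of that sum was Ighm, the immunoglobulin heavy chain of naive B cells. Ighm fell from 1232, 739.9, 1817 and 1591 CPM to 173, 181, 189, 151 and 189 CPM (log2 fold change -2.93 with SE 0.25, edgeR adjusted p = 2.43e-05). Only 5 of the 10 B cell markers were tested, of which 3 fell, 0 rose and 2 did not pass, and 2 had a positive log2 fold change. In every co-culture library 9 of the 10 were under 1 CPM. Cd79a, the signalling chain of the B cell receptor, fell from 5.83 to 12.01 to 0.442 to 0.787 CPM (-4.04). The CD4 T cell markers were at 6240 to 12400 CPM in sum in the cells alone and 8670 to 10200 CPM in the co-culture, and 7 of the 9 did not pass the test. The defining markers of the labelled cell type were thus present in all 9 libraries.

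**Figure D5:**
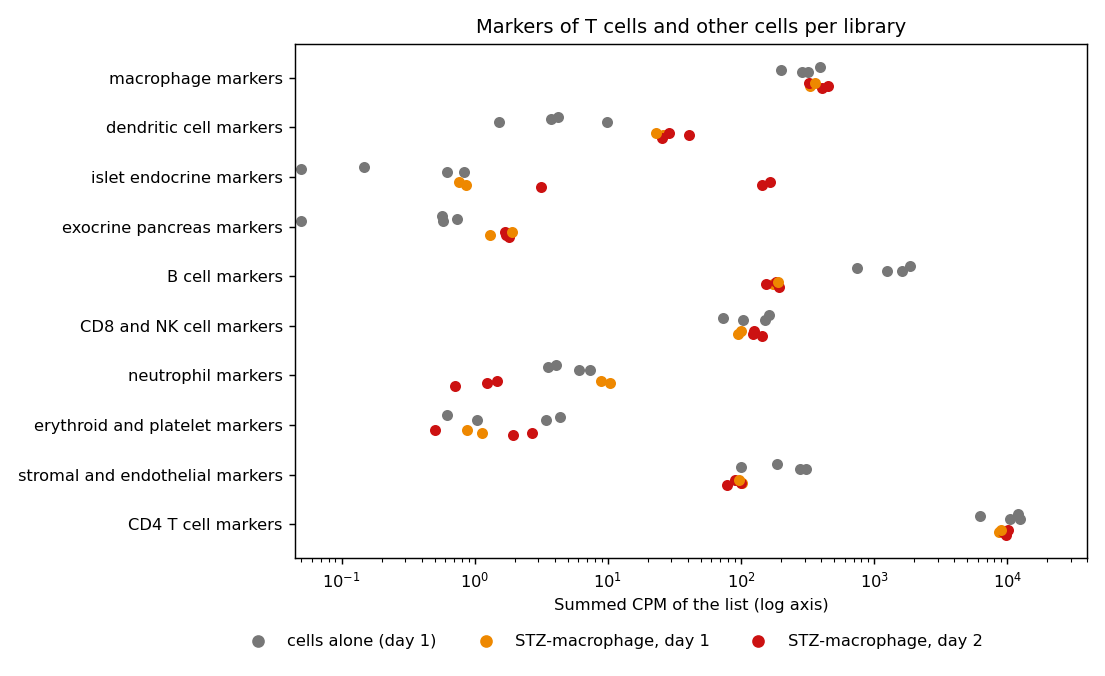
Summed CPM (log axis) of marker lists in each of the 9 libraries, 1 point a library, with cells alone in grey and the STZ-macrophage co-cultures of day 1 in orange and day 2 in red. Sums of 0 are drawn at the lower edge. CD4 T cell markers sum to 6240 to 12400 CPM in both groups, the sum of B cell markers, nearly all of it Ighm, is lower in the co-culture, and islet endocrine markers are above 100 CPM only in STZ-macrophage replicates 2 and 4.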

How the data were processed

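Bulk RNA libraries of 4 cells-alone and 5 STZ-macrophage samples were compared, grouped by their labels. Per the labels' protocols, libraries came from sorted cells by the SMARTer Ultra Low kit, which keeps no strand, and the authors aligned reads to GRCm38, with the counting program and annotation release not given in the sources used here. Per the submitters' processing notes, DESeq2 was used. The deposited table holds the authors' estimated counts of 55774 gene entries (11% of values not whole), with 407 entries that repeat a symbol kept separate. They were rounded here. The authors' second table, log2 values of 12236 genes after an adjustment the labels do not describe, served only as an alternative with limma (3.58.1).

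Genes were tested with edgeR (4.0.16, R 4.3.3): TMM scaling, filterByExpr (15209 genes kept), a robust quasi-likelihood fit and Benjamini-Hochberg adjustment over all genes tested, called below 0.05. Standard errors come from that test. The day comparisons used 1 mean per group and day, and the comparison of macrophages used all 13 libraries with day as a term. Genes without a count in the cells alone were set against 3 counts over the group, and intervals (95%) cover counting error only. The p-values set a difference between groups against the spread between these samples. The main fit had no term for the day, so its spread within the co-culture includes the difference between the days. All cells alone are of day 1, so its fold changes and calls include any such difference too. Of the 6823 genes called, 4721 were called with the same sign in the day 1 libraries compared within their batch, where fewer co-cultures carry the contrast. The fitting script was tested on simulated data. It called 3 of 100 genes with a true log2 fold change of 1 in either direction, and 69 of 98 with one of 3. Among the 14824 genes run, 4 calls were false. No other genes were changed in the simulation, whereas 44.9% of genes were called in the data. The Benjamini-Hochberg cut-off was thus stricter in the simulation, and these counts do not give the share of changes missed in the data. A gene that did not pass may still differ.

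Named genes were the 12 largest changes in each direction among well-expressed genes with groups that do not overlap, up to 4 members of each list with the smallest p, 25 fixed genes and markers, some of which are not reported here. Members and lists were chosen with earlier results of these data known. Promoters are from RefSeq (GRCm38.p6). Alternatives were RLE and library-total scaling, no filter, DESeq2 (1.42.0), GC correction, a replicate block and libraries left out.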

Additional observations from a re-analysis of the deposited data

Results flagged for a closer look

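In 20 of 289 groups of values tested (a gene or a marker sum, in 1 group of libraries), a single library lay far from the others on the log2 CPM scale, with a gap to its nearest neighbour that was a larger share of the range than Dixon's 95% critical value. Chance gives this in about 1 group in 20 only where values vary continuously, which genes with few counts do not. Where the other libraries have no count, any count gives a ratio of 1.0, as for Hk2 with 1 count over the cells alone. Others, such as Ctla4, were flagged for the only library without a count. The cells alone held 17 of the 20, and their replicate 2 was the outlying library in 7. Several of the 17 are such genes, so these numbers cannot be set against that rate or compared between the groups.

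Replicate 2 of the cells alone was the lowest for Slamf6 (0.9 of the range), Tsc22d3 (0.879) and Arl5c (0.837), and the highest for Ski (0.938), Socs2 (1.0), Tbx21 (1.0) and Gzmb (0.837). Replicate 1 of the cells alone was the lowest for Ctla4 (0.84), Irf4 (0.835), Tnfrsf9 (0.926) and the sum of exocrine pancreas markers (0.894). Replicate 3 was the highest for Cdkn1a (1.0) and Hmmr (1.0), with the other 3 libraries at 0. Replicate 4 was the highest for Havcr2 (1.0), Hk2 (1.0) and Lyz2 (1.0), and the lowest for Foxp3 (0.921).

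In the co-culture, STZ-macrophage replicate 1 was the highest for Tbx21 (0.839), replicate 3 the lowest for Nt5e (0.721) and replicate 4 the lowest for Lef1 (0.777). A ratio of 1.0 means that all other libraries had the same value, which for these genes was 0.

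Between the co-cultures of day 2 and day 1, the log2 difference was -3.55 for H2-K1, -3.15 for Stk38, -2.14 for Rinl, -2.07 for Rbm39 and -2.02 for Usp28 by the edgeR test, and each call was lost when any 1 co-culture library was left out.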

How the results depend on the processing

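Against the cells alone, 3310 genes were higher and 3513 lower, and these counts were 3650 and 3105 under RLE scaling, 2828 and 4232 with library totals, 3557 and 3287 without a filter, 4110 and 3511 by DESeq2, 3305 and 3507 with a GC correction, 3288 and 3519 with all 13 libraries and day, and 3202 and 3181 with day 2 alone. They fell to 1603 and 1214 with day 1 alone and to 2142 and 2086 without STZ-macrophage replicates 2 and 4. Leaving out each library in turn gave 2743 to 3601 and 2904 to 3861, and for day 1 within its batch 1440 to 3636 and 825 to 3422. With cells-alone replicates 1 and 2 left out, the counts were 4100 and 4136, and with replicates 3 and 4 left out 3532 and 2834; both were chosen after seeing the data. The authors' adjusted log2 table with limma gave 3773 and 3776, of which 18 were called in the opposite direction, and a log2 fold change of -1.30 for H2-K1, the only 1 of 145 named genes that reversed in any alternative. Of these genes, 19 lost their call with day 1 alone, and Ccng1, Dnmt1 and Slc7a1 in the authors' table. Among the 19, Cd28, Themis, Rsrp1 and Slc7a1 passed in the day 1 libraries compared within their batch in the model of all 9 libraries, and Ddit3 did not (edgeR). List medians changed sign for TCR genes (0.0903 under RLE scaling, 0.0236 with the GC correction), amino acid transporters (-0.572) and STAT and SOCS genes (-0.512) with day 2 alone, NF-kB genes (0.194) with day 1 alone, DNA methylation and Polycomb enzymes (0.0581 under RLE scaling, 0.0726 with day 2 alone) and redox genes (-0.0923 with library totals); the cause was not tested. Between the days, RLE scaling gave 1 gene higher and 2 lower, and leaving out any 1 co-culture gave 0 to 0 in each direction. Against control macrophages, the counts were 30 and 14 under RLE scaling, 1498 and 1200 with the 9 co-cultures only, and 0 to 78 and 0 to 12 with 1 library left out. The summed macrophage markers differed by 0.166 to 0.49 (log2) with 1 library left out and by 2.80 without Ctss, Cst3, Apoe and Tyrobp. With the replicate number as a block, 2616 genes were higher and 2223 lower than in the cells alone, Ddit3 and Ins2 lost their calls, and 0 and 0 differed from control macrophages by edgeR (1646 at an unadjusted p below 0.05). The labels do not say that a number pairs samples: deviations of same-numbered libraries had correlations of 0.0356, -0.442, 0.356 and 0.309, and 1 of 4 cells-alone libraries matched its own number best. Depth limits low genes, since 3 counts are 0.0582 to 0.138 CPM.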
